A study of Homo sapiens with 6 samples.

Results

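Cells make cholesterol from acetyl-CoA in a long chain of enzymes, and 27 genes of that chain and of its control were followed here through 6 tumour libraries. They were taken by symbol from a list of pathway genes whose rule uses no measured value. Earlier results of these data were, however, known when the list was chosen. All 27 were found among the 17081 genes of the count table. The list holds 19 enzymes, 5 genes of SREBP and its control, and 3 genes of cholesterol transport inside the cell, and it is not the whole pathway. All 27 passed the low-count filter, which kept 13382 genes.

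The samples were tumours of DMS114, a long-established line of human small cell lung cancer cells, that had invaded a sciatic nerve. One group, 3 libraries, came from the proximal and the other, 3 libraries, from the distal invaded region. Both groups share the line and the model. The labels give no other treatment, and no host strain, animal or batch, so a p-value measures the spread between these libraries, which may be technical. Total counts ran from 16171106 in distal 3 to 26116191 in proximal 1, and a member had between 98 and 8341 counts in a library. Levels are given as CPM, counts scaled to library size (counts divided by the TMM-scaled total in units of 1e+06), and a log2 fold change is always distal minus proximal.

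Cholesterol synthesis begins with HMG-CoA, passes through mevalonate to the isoprenoid diphosphates, joins these into squalene, folds squalene into lanosterol and trims lanosterol to cholesterol. The genes of the pathway are switched on together by SREBP transcription factors, which are held in the endoplasmic reticulum by SCAP and INSIG proteins while sterol is plentiful and are released when it is scarce. Rapidly dividing cells rely on the pathway for membranes and for the prenyl groups that anchor small GTPases, and nerve tissue is known for its cholesterol-rich myelin.

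Distal 3 stood apart from the other libraries before any sterol gene was considered. It was the lowest of the 6 libraries for 25.4% and the highest for 26.9% of all genes tested. The summed level of 18 skeletal muscle markers was 2738 CPM in distal 3 and 402 CPM in proximal 3, against 20.05 to 56.8 CPM in the other 4 libraries. MYH7, the slow myosin heavy chain, was at 0 in proximal 1 and distal 1. The summed level of 12 Schwann cell markers was 78.5 to 169 CPM in proximal and 91.1 to 135 CPM in distal libraries, and S100B, a calcium-binding protein of Schwann cells, was at 0 in all but distal 2. Markers of adipocytes (7 genes, 2.03 to 5.01 CPM), endothelium (7 genes, 0.232 to 2.99 CPM) and leukocytes (9 genes, 1.62 to 6.17 CPM) were low throughout. The build was human, and how host reads were handled is not given. Host cells may thus be counted only where their reads align to human genes. The level of a marker list, low or high, is therefore no measure of how many such cells were present. The summed level of 10 fibroblast markers was 5438 to 6147 CPM in proximal and 4564 to 5617 CPM in distal libraries, most of it COL3A1, a fibrillar collagen. DCN had 314 to 584 CPM and LUM 297 to 567 CPM. No other gene of that list passed the 62.2 CPM of COL1A1 in proximal 3. PDGFRA had 0.244 to 1.28 CPM, and DPT was at 0 in all but distal 3. The cells that these fibroblast marker reads came from were not tested. The part of the reads of all these marker lists in the results was not tested either. Of the markers of the line, YAP1 had 167 to 187 CPM and the synaptic vesicle protein SYP 56.9 to 63.9 CPM. Other markers of that list of 11 stood apart in distal 3: EPCAM, an epithelial adhesion protein, had 28.0 CPM there and 6.51 to 17.2 CPM elsewhere, NCAM1 3.91 against 0.352 to 0.988 CPM, and NEUROD1 6.47 against 0.0462 to 0.618 CPM. In bulk tissue, fewer cells of a type and less RNA per cell cannot be told apart.

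None of the 27 genes passed the test, and most had slightly lower values in distal. Of the 27 members, 0 were called by edgeR's quasi-likelihood test (adjusted p = 0.9997 for each), where 0% of all genes tested were called. DESeq2 and limma-voom also called 0 members. Lower values in distal were found for 24 of 27 members, where 48.4% of all genes had lower values. The enzymes varied together between libraries (median Pearson correlation between 2 enzymes 0.698), so the 27 members are not separate observations. The median log2 fold change was -0.16 over the members and 0.00 over all genes tested. Among the enzymes 18 of 19 had lower values, with a median of -0.16, which is 10.4% less in distal. That median was -0.08 without proximal 2, -0.09 without distal 3 and -0.25 without distal 2, and 16, 17 and 19 of the 19 enzymes then had lower values. An unadjusted p under 0.05 was reached by 1 member, MVK, where 1.33% of all genes reached it and 0.665% on the lower side. Without proximal 2 the count was 0. Without proximal 1 it was 4, and without distal 2 it was 6, with MVK not among them. The shares of all genes in these leave-out fits are not given here, so their counts are not read as results about the members. The 3 distal libraries lay below the 3 proximal ones for 2 members, MVK and PMVK, where 3.09% of all genes did so. They lay above them for 0 members, against 3.2% of all genes. For 22 of 27 members the 95% interval of the difference stayed within 1.5-fold in either direction, as it did for 69.1% of all genes. For 26 it stayed within 2-fold, as for 84% of all genes, with STARD4 the exception.

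**Figure D1:**
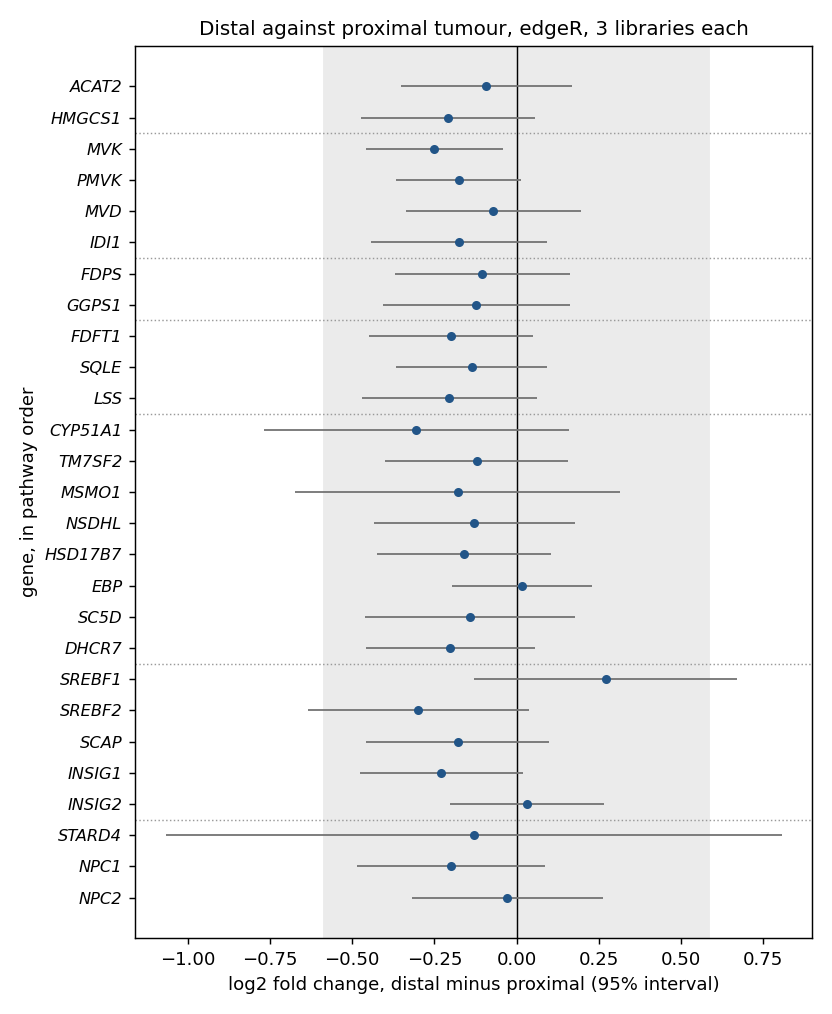
Log2 fold change of each of the 27 genes (x axis, distal minus proximal, with the 95% interval from edgeR, 3 libraries per group) in pathway order (y axis). The grey band marks 1.5-fold in either direction. Of the 27 points, 24 lie left of 0, and the interval of MVK, from -0.46 to -0.04, is the one that leaves 0 out.

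Upstream sequence is shown for 5 members: SREBF2, whose window is the one with a sterol regulatory element; HMGCS1, MVK and MSMO1, which represent the early, mevalonate and late enzymes and had lower mean values in distal; and EBP, which stayed flat. RefSeq promoter windows (GRCh38.p14, 250 bases before to 50 from the start) were at hand for 24 of the 27 genes. They were searched on both strands for TCACNCCAC, the sterol regulatory element bound by SREBP, and for CCAAT, the box bound by NF-Y, a factor known to act beside SREBP at sterol genes. The 250 bases before the start are printed 5′ to 3′ on the gene's strand. Capitals mark these matches, and ATTGG is CCAAT on the other strand.
SREBF2, plus strand, chr22:41832855-41833104: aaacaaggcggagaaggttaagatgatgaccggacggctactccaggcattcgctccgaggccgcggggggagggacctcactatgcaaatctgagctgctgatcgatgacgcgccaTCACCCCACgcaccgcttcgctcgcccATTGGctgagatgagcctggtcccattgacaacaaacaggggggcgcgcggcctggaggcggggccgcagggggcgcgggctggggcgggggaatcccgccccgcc
HMGCS1, minus strand, chr5:43313413-43313662: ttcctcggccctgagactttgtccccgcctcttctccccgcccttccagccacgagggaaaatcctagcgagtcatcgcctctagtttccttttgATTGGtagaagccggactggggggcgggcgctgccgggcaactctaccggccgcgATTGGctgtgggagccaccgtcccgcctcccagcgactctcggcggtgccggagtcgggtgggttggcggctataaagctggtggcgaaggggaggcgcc
MVK, plus strand, chr12:109573544-109573793: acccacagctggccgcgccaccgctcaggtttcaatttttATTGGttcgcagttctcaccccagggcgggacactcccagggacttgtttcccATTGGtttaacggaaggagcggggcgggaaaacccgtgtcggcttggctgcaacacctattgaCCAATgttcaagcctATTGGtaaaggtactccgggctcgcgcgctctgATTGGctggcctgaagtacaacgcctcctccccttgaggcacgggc
MSMO1, plus strand, chr4:165327419-165327668: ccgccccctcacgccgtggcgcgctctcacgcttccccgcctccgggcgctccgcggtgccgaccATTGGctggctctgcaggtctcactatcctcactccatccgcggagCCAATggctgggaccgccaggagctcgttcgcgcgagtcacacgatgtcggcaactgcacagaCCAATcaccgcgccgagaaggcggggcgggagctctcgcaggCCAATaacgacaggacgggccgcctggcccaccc
EBP, plus strand, chrX:48521558-48521807: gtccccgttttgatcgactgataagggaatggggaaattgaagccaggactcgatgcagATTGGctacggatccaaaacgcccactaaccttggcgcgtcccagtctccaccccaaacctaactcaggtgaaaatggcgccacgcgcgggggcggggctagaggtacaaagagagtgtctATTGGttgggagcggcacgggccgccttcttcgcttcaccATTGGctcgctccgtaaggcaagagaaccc

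The sterol regulatory element in this spelling stood in 1 of 24 member windows, that of SREBF2, where it reads TCACCCCAC and begins 133 bases before the start. It stood in none of the 16 enzyme windows and in 1.1% of the 13201 windows whose genes are in the count table. The CCAAT box stood in 12 of 16 enzyme windows (75%), against 36.3% of those 13201 windows. MVK and NSDHL held 5 matches each, MSMO1 4, and FDPS, MVD and EBP 3 each. IDI1, PMVK, GGPS1 and CYP51A1 held none. The GC box GGGCGG stood in 14 of 16 enzyme windows (87.5%), against 65% of the windows of genes in the count table. The E-box CACGTG stood in 2 of 16 (12.5%), against 9.33%. A match is a string of letters in a window and was not tested for binding.

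The early enzymes were well expressed and their groups overlapped. ACAT2, a cytosolic thiolase that joins acetyl-CoA units, had 97.5, 109 and 79.4 CPM in proximal and 92.0, 91.9 and 84.6 CPM in distal libraries. Proximal 3 was its lowest library, below all distal ones. ACAT2 differed by -0.09 on the log2 scale (SE 0.12), by -0.21 without proximal 3, by -0.05 without distal 3 and by 0.02 without proximal 2. HMGCS1 (chromosome 5, 43287470 to 43313412), the cytosolic HMG-CoA synthase, had 305, 377 and 309.9 CPM in proximal and 291, 321 and 246 CPM in distal libraries. Proximal 2 was the highest and distal 3 the lowest library, and distal 2 lay above proximal 1 and proximal 3. Its means were 331 ± 39.9 and 286 ± 37.6 CPM (SD, n = 3 each). The difference on the log2 scale was -0.21 (SE 0.12, 95% interval -0.47 to 0.06), or -0.11 without either proximal 2 or distal 3. Of the exon bases of ACAT2, 52.3% are shared in GENCODE 29 with genes on the opposite strand, TCP1 and SOD2 among them, so its counts are less certain if strand was not used.

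In the mevalonate segment, the groups overlapped for MVD and IDI1 but not for MVK and PMVK. Of all genes tested, 3.09% lay lower in distal without overlap, and no member was called. MVK (mevalonate kinase, chromosome 12, 109573272 to 109598125) had 36.4, 40.5 and 37.95 CPM in proximal and 32.7, 32.1 and 31.8 CPM in distal libraries. Its distal libraries lay within 1 CPM of each other and below every proximal one. The means were 38.3 ± 2.02 and 32.2 ± 0.454 CPM (SD, n = 3 each). The log2 fold change was -0.25 (SE 0.09), or 15.9% less. By edgeR's quasi-likelihood test the adjusted p was 0.9997 and the unadjusted p 0.0228. An exact permutation test, two-sided, returned p = 0.1, the smallest value that 3 against 3 libraries allow. Any gene whose groups do not overlap gets this value, so it adds nothing to the lack of overlap. With any 1 library left out the log2 fold change stayed between -0.29 and -0.21. MMAB, a cobalamin enzyme gene that shares 4.72% of the exon bases of MVK on the opposite strand, had 28.3, 31.3 and 28.7 CPM in proximal and 25.95, 27.6 and 27.4 CPM in distal libraries, again without overlap. Its log2 fold change was -0.13 (SE 0.10), with an adjusted p of 0.9997 in the same edgeR fit.

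PMVK, the phosphomevalonate kinase of the next step, had 81.3, 88.4 and 86.1 CPM in proximal and 78.1, 77.3 and 70.8 CPM in distal libraries. The groups did not overlap, though proximal 1 and distal 1 lay close together. PMVK had a log2 fold change of -0.18 (SE 0.09, 95% interval -0.37 to 0.01). The exact permutation test again gave p = 0.1, as it must where groups do not overlap. MVD, which decarboxylates the product to isopentenyl diphosphate, had 66.0, 85.0 and 74.0 CPM in proximal and 62.3, 75.6 and 76.3 CPM in distal libraries. It is the enzyme for which distal 3 was above the mean of the 6 libraries, and the log2 fold change, -0.07, was 0.03 without proximal 2 and 0.01 without distal 1. IDI1, the isomerase that interconverts the isoprenoid units, had 242, 264 and 196 CPM in proximal and 211, 227 and 185 CPM in distal libraries. Proximal 3 lay below distal 1 and distal 2. IDI1 differed by -0.17 on the log2 scale (SE 0.12), by -0.29 without proximal 3, by -0.10 without distal 3 and by -0.08 without proximal 2.

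The prenyl diphosphate synthases FDPS and GGPS1 had the smallest median among the segments of synthesis, -0.11. FDPS, which makes farnesyl diphosphate for sterols and for protein prenylation, had 303, 362 and 300.2 CPM in proximal and 297, 344 and 257 CPM in distal libraries. Distal 2 lay above proximal 1 and proximal 3, and the log2 fold change of -0.10 (SE 0.12) was -0.01 without distal 3 and -0.01 without proximal 2. Reads of FDPS could be shared with its 8 named pseudogenes. GGPS1, which makes geranylgeranyl diphosphate for prenylation outside the sterol branch, had 15.0 to 18.9 CPM, with a log2 fold change of -0.12 (SE 0.13), or -0.07 without distal 3. It shares 37.3% of its exon bases with genes on the same strand, so its reads could be split.

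The 3 genes from squalene to lanosterol were all highest in proximal 2. FDFT1, squalene synthase, had 152, 164 and 146 CPM in proximal and 135.0, 154 and 113 CPM in distal libraries. SQLE, the squalene epoxidase and a slow step of the pathway, had 287, 354 and 299 CPM in proximal and 298, 300.1 and 258 CPM in distal libraries. Both were lowest in distal 3, and for both distal 2 lay above 2 proximal libraries. LSS, which folds the epoxide into lanosterol, had 206, 254 and 238 CPM in proximal and 182, 238 and 186 CPM in distal libraries, with its lowest value in distal 1. Log2 fold changes were -0.20 (SE 0.11) for FDFT1, -0.14 (SE 0.10) for SQLE and -0.20 (SE 0.12) for LSS. With 1 library left out they ran from -0.31 (without distal 2) to -0.09 (without distal 3) for FDFT1, from -0.20 (without proximal 1) to -0.04 (without proximal 2) for SQLE, and from -0.34 (without distal 2) to -0.14 (without distal 1 or proximal 2) for LSS.

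Of the 8 genes from lanosterol to cholesterol, 7 had lower values in distal and EBP did not. MSMO1, a sterol methyl oxidase, varied most among the enzymes, with 157, 201 and 154 CPM in proximal and 164, 179.8 and 108 CPM in distal libraries. Distal 1 and distal 2 lay above proximal 1 and proximal 3, and the log2 fold change of -0.18 (SE 0.21) was 0.01 without distal 3. EBP, the sterol isomerase, varied least, with 26.6, 26.8 and 27.3 CPM in proximal and 27.5, 27.8 and 26.3 CPM in distal libraries. Its highest library was 1.06 times its lowest, and its 95% interval of -0.20 to 0.23 bounds any difference to less than 1.5-fold. DHCR7, the reductase of a last step, had 70.8, 76.1 and 76.2 CPM in proximal and 67.6, 72.3 and 53.9 CPM in distal libraries, with -0.20 (SE 0.12), which was -0.09 without distal 3.

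Of the other late enzymes, 4 lay close to the median, and CYP51A1 had the lowest log2 fold change of the 27 members. TM7SF2 (a sterol reductase, 28.0 to 36.8 CPM), NSDHL (a sterol dehydrogenase, 17.5 to 23.5 CPM), HSD17B7 (a ketosteroid reductase, 28.9 to 38.4 CPM) and SC5D (a sterol desaturase, 78.8 to 119.7 CPM) had log2 fold changes from -0.16 to -0.12. Without proximal 2 these were -0.05 for TM7SF2, -0.02 for NSDHL and -0.09 for HSD17B7, and without distal 3 SC5D was at -0.01. At the other end, TM7SF2 and HSD17B7 were at -0.26 without distal 2, NSDHL at -0.21 without proximal 1 and SC5D at -0.25 without proximal 3. All 4 were highest in proximal 2, and 3 of them were lowest in distal 3, while HSD17B7 was lowest in distal 1. HSD17B7 has 2 named pseudogenes with which reads could be shared. CYP51A1, the lanosterol demethylase, was listed at only 6.19, 8.73 and 9.61 CPM in proximal and 6.79, 7.05 and 5.98 CPM in distal libraries. In GENCODE 29, 79.4% of its exon bases are shared with other genes on the same strand, and 3 pseudogenes carry its name, so its counts could be far below its transcript level. Its log2 fold change of -0.30 (SE 0.21) was -0.48 without proximal 1, -0.17 without proximal 3 and -0.11 without proximal 3 and distal 3.

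**Figure D2:**
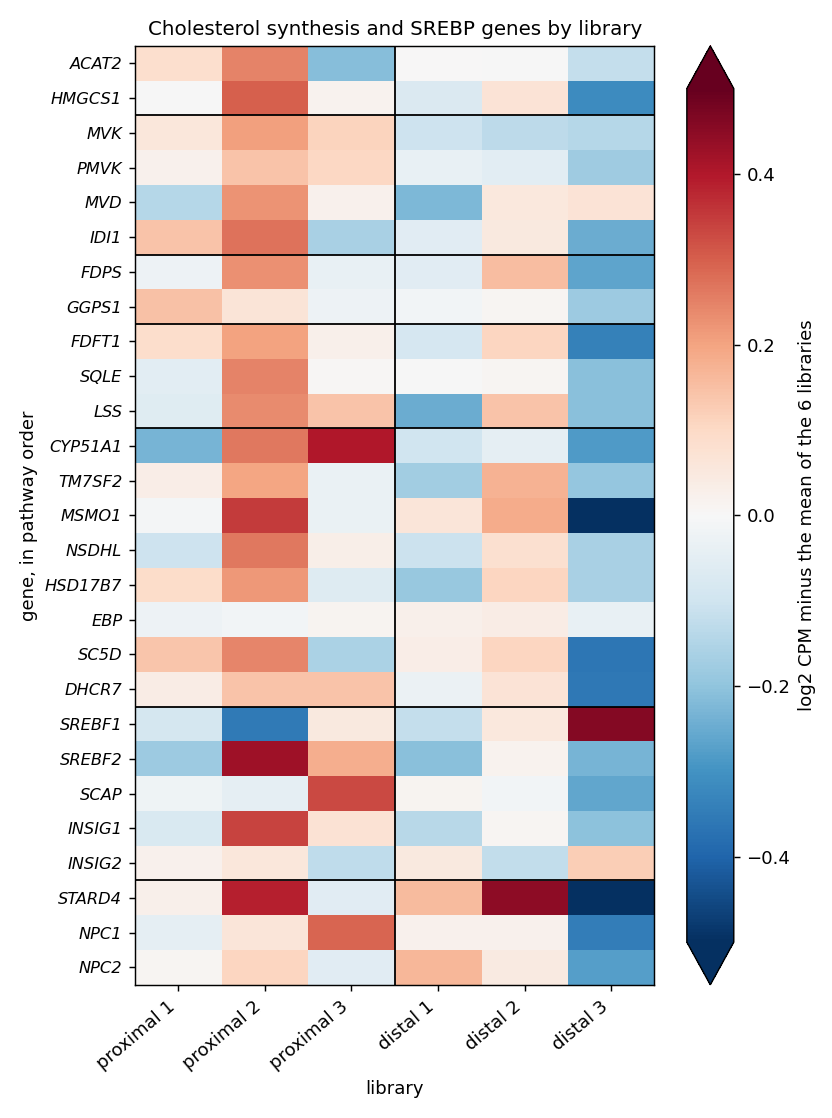
Log2 CPM of each gene (rows, in pathway order, lines between the segments) in each library (columns), shown as the difference from the gene's mean over the 6 libraries; the colour scale ends at 0.5 in either direction. Most enzyme rows are red in proximal 2 and blue in distal 3, and SREBF1 shows the opposite colours.

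The enzymes varied together from library to library, within as well as between the groups. The mean deviation of the 19 enzymes from their 6-library means was 0.01, 0.21 and 0.01 in proximal 1, 2 and 3 and -0.07, 0.06 and -0.22 in distal 1, 2 and 3, on the log2 scale. Proximal 2 and distal 3 were the ends of the range, and distal 2 lay above proximal 1 and proximal 3, so the groups overlapped. Proximal 2 was the highest library for 15 of 19 enzymes, where it was the highest for 16.6% of all genes tested. Distal 3 was the lowest for 15 of 19, where it was the lowest for 25.4% of all genes. The median deviation of all genes tested was 0.00 in each library. The enzymes took 0.223%, 0.262% and 0.224% of the counts in proximal and 0.213%, 0.237% and 0.190% in distal libraries.

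Distal 3 was the library with the fewest counts and the most muscle marker reads, 2738 CPM. Proximal 3 came second in muscle markers, with 402 CPM, and its enzyme level was near the 6-library mean. The part of muscle reads, or of depth, in the low enzyme level of distal 3 was not tested. Over the 6 libraries, which share depth and scaling, the median Pearson correlation between 2 enzymes was 0.698 and 165 of 171 pairs were above 0. The median over all pairs of genes tested was 0.00. After the mean of each group was taken out, the median between enzymes was 0.638. For 13 of 19 enzymes the correlation with the mean of the other enzymes was over 0.8, led by HMGCS1 at 0.996, while EBP had 0.28 and MVD 0.389. Of all genes tested, 5.05% had a correlation over 0.8 with the enzyme mean. These correlations rest on 6 points, with proximal 2 and distal 3 at the ends.

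**Figure D3:**
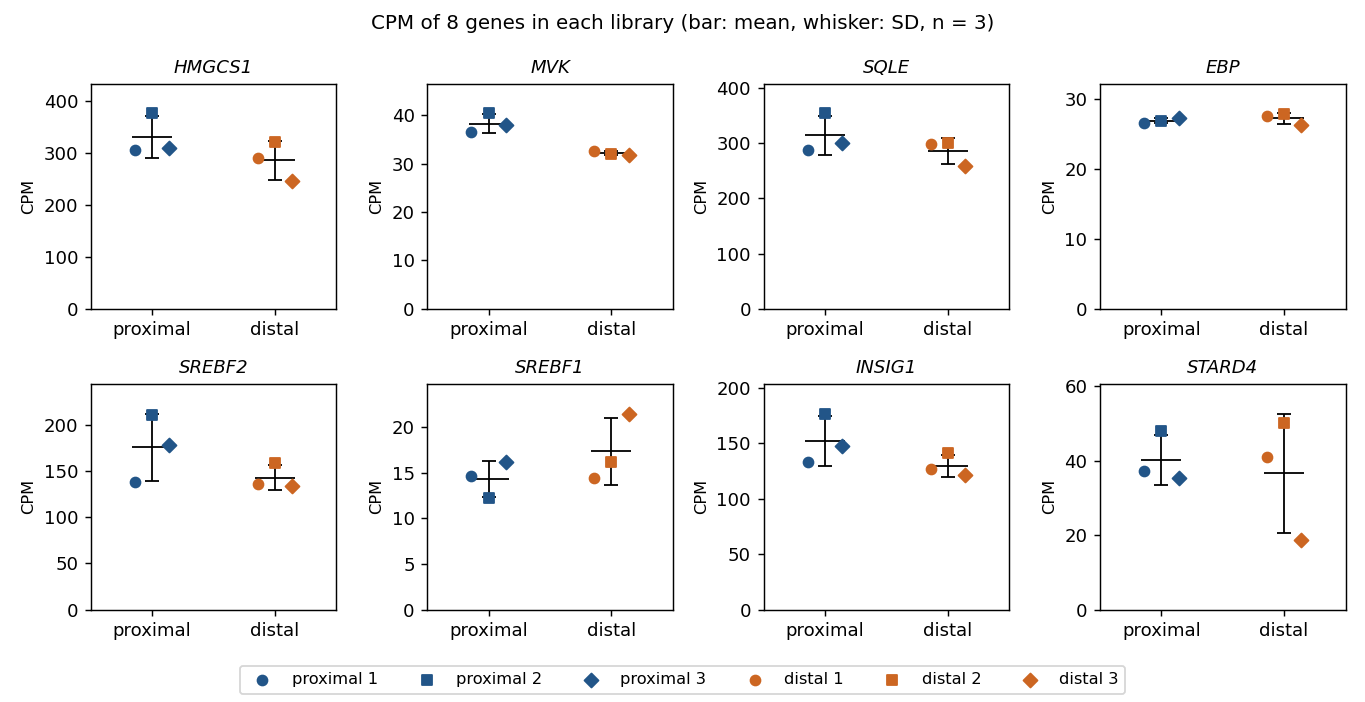
CPM (y axis, from 0) of 8 genes in the proximal and distal groups (x axis); symbols are libraries 1 to 3, bars the mean and whiskers the SD (n = 3). The groups do not overlap for MVK, as for 3.09% of all genes tested on the lower side. EBP is level, and the low distal point of STARD4, 18.8 CPM, is distal 3.

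Of the SREBP genes, SREBF2 followed the enzymes and SREBF1 ran against them. SREBF2 (chromosome 22, 41833105 to 41907305) encodes the factor best known for sterol genes. It had 138, 210.5 and 178 CPM in proximal and 136, 159 and 133 CPM in distal libraries, with proximal 2 the highest and proximal 1 close to the distal values. The means of SREBF2 were 176 ± 36.1 and 143 ± 13.9 CPM (SD, n = 3 each). The log2 fold change was -0.30 (SE 0.15, 95% interval -0.63 to 0.04), and it was -0.15 without proximal 2 and -0.45 without proximal 1. SREBF1 encodes the factor best known for fatty acid genes. It had 14.7, 12.2 and 16.2 CPM in proximal and 14.4, 16.2 and 21.5 CPM in distal libraries. Its lowest library was proximal 2 and its highest distal 3, the reverse of the enzymes. SREBF1 differed by 0.27 on the log2 scale (SE 0.18), and by 0.09 without distal 3 and 0.17 without proximal 2. The correlation with the enzyme mean over the 6 libraries was 0.842 for SREBF2 and -0.856 for SREBF1. The counts for SREBF1 do not separate its isoforms.

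INSIG1, INSIG2 and SCAP, which control SREBP, did not move as a group. INSIG1 (chromosome 7, 155297878 to 155310235), itself an SREBP target, had 133, 177 and 147 CPM in proximal and 127, 141 and 122 CPM in distal libraries. Only distal 2 reached into the proximal range, where it passed proximal 1. INSIG1 differed by -0.23 on the log2 scale (SE 0.11, 95% interval -0.48 to 0.02) and by -0.11 without proximal 2, and its correlation with the enzyme mean was 0.922. INSIG2, its paralogue, had 33.5 to 39.8 CPM with the highest value in distal 3, a log2 fold change of 0.03 (SE 0.11) and a correlation of -0.381. SCAP, the escort protein, had 65.0, 63.9 and 82.9 CPM in proximal and 66.5, 65.3 and 55.1 CPM in distal libraries. Proximal 3 and distal 3 were its ends, and the log2 fold change, -0.18 (SE 0.12), was 0.03 when both were left out.

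Among the transport genes STARD4 had the widest spread of all members. STARD4, a cytosolic sterol carrier and SREBP target, had 37.3, 48.0 and 35.3 CPM in proximal and 40.9, 50.1 and 18.8 CPM in distal libraries. Distal 2 was its highest and distal 3 its lowest library, 2.66 times apart. Its log2 fold change of -0.13 (SE 0.37, 95% interval -1.07 to 0.81) was 0.18 without distal 3 and 0.02 without proximal 2, so these libraries set its sign. NPC1, which exports cholesterol from lysosomes, had 65.8, 70.8 and 83.2 CPM in proximal and 69.0, 68.9 and 53.4 CPM in distal libraries, with -0.20 (SE 0.13), which was -0.09 without distal 3, -0.10 without proximal 3 and 0.01 without both. NPC2, its soluble partner, had 19.7 to 26.7 CPM and differed by -0.03 on the log2 scale (SE 0.13), or 0.09 without distal 3.

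Levels of different genes were compared per kilobase of all GENCODE 29 exons, averaged over the 6 libraries. FDPS (83.5 CPM per kilobase), SQLE (69.5), HMGCS1 (65.6), PMVK (62.8) and MSMO1 (55.6) led. SREBF1 (1.98), CYP51A1 (2.06), GGPS1 (4.49) and MVK (5.44) were lowest among the 27. With the length of the longest coding transcript in place of all exons, FDPS, SQLE and HMGCS1 kept ranks 1, 2 and 3, and CYP51A1, SREBF1 and GGPS1 were the lowest 3, while MVK went from rank 24 to rank 22. SREBF2 had 21.1 CPM per kilobase by the former and 29.7 by the latter measure, and SREBF1 1.98 and 3.73. The neighbours SQLE and HMGCS1, whose libraries range from 59.9 to 82.3 and from 52.4 to 80.1 CPM per kilobase, overlap.

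Lists of neighbouring pathways were compared by the same counts. Of 14 fatty acid genes driven by SREBP, 9 had lower and 5 higher values in distal (median -0.10, or -0.02 without proximal 2), and 0 were called. ACLY, which supplies cytosolic acetyl-CoA, had 365, 419.5 and 433 CPM in proximal and 357, 384 and 338 CPM in distal libraries (log2 fold change -0.17, SE 0.09). ACACA, which makes malonyl-CoA, had 212 to 244 CPM in proximal and 204 to 209.7 CPM in distal libraries, without overlap (-0.13, SE 0.08, and -0.07 without proximal 3). By its mean deviation the list was highest in proximal 3 (0.11), with -0.03 in proximal 2 and 0.00 in distal 3. By its median deviation it had 0.10 in proximal 3, 0.07 in proximal 2 and -0.04 in distal 3. Proximal 2 was the highest library for 5 of the 14 genes and proximal 3 for 4. Of 16 genes that process SREBP or degrade pathway proteins, 5 had lower and 11 higher values (median 0.02), but 9 and 7 without proximal 2 and 8 each without distal 3. C12orf49, also called SPRING1, a factor for SREBP cleavage, had 94.9 to 98.0 CPM in proximal and 83.3 to 91.3 CPM in distal libraries. ERLIN1, a sterol-linked adaptor of degradation, had -0.17 (SE 0.11), which was -0.06 without distal 3.

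Genes of the liver X receptors (LXR), which sense oxysterols and drive sterol efflux, had higher values in distal for 7 of 8, with a median of 0.15, but for 4 of 8 with a median of 0.03 without distal 3. Of all genes tested, 51.6% had higher values, and 0 of the 8 were called by edgeR's test. The list's mean deviation was highest in distal 3 (0.36) and lowest in proximal 2 (-0.17), the reverse of the enzymes. ABCA1, the efflux transporter, had 5.49, 4.34 and 9.61 CPM in proximal and 8.90, 6.26 and 16.9 CPM in distal libraries. Its log2 fold change of 0.71 (SE 0.44) was 0.23 without distal 3 and 1.11 without proximal 3. LPCAT3, a phospholipid acyltransferase, had 32.5, 26.6 and 30.6 CPM in proximal and 33.3, 33.8 and 35.7 CPM in distal libraries, without overlap, and 0.19 (SE 0.11), or 0.12 without proximal 2.

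**Figure D4:**
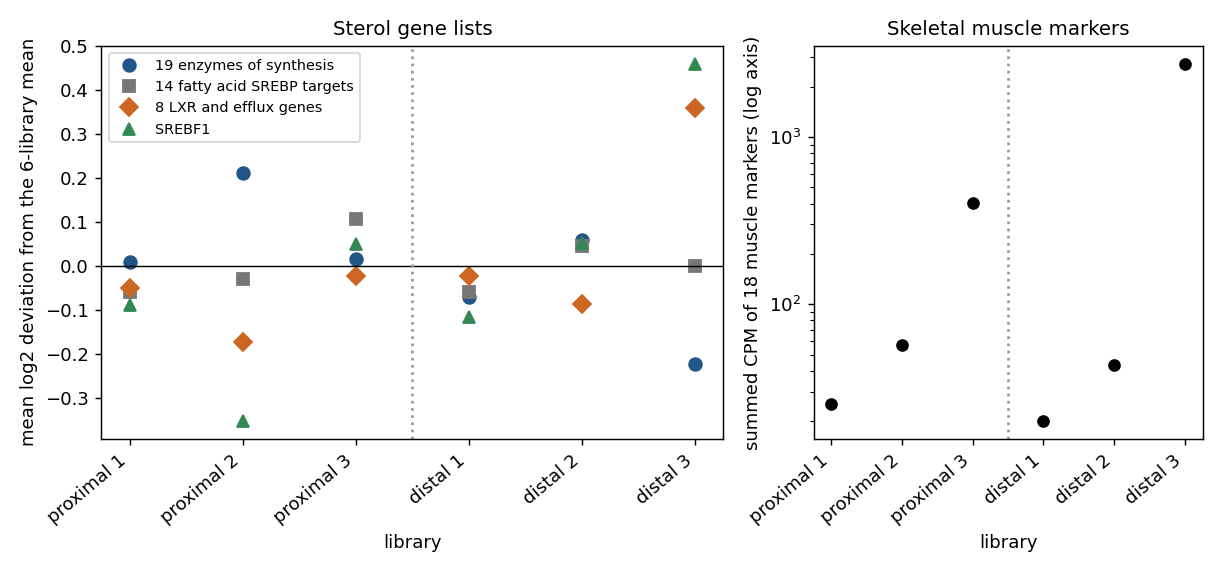
Left, mean deviation of log2 CPM from the 6-library mean (y axis) for 19 enzymes, 14 fatty acid genes, 8 LXR and efflux genes and SREBF1 in each library (x axis). The enzymes are highest in proximal 2 (0.21) and lowest in distal 3 (-0.22), where the LXR list and SREBF1 are highest. Right, summed CPM of 18 skeletal muscle markers on a log axis, with 2738 CPM in distal 3.

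The remaining lists were close to even and turned with single libraries. Of 28 tested genes of sterol esterification, oxidation and transport, 12 had lower and 16 higher values (median 0.02), but 17 and 11 without proximal 2. CH25H, which makes an oxysterol that restrains SREBP, had 4.95, 13.4 and 5.93 CPM in proximal and 4.89, 5.56 and 1.77 CPM in distal libraries. It was thus highest in proximal 2 and lowest in distal 3, as the enzymes were, and the log2 fold change, -0.97 (SE 0.53), was -0.41 without proximal 2 and -0.63 without distal 3. OSBP2, a sterol-binding protein, had 9.94 to 12.7 CPM in proximal and 7.69 to 9.68 CPM in distal libraries (-0.36, SE 0.18, and -0.24 without proximal 2). Of 15 genes of the isoprenoid branches, 7 had lower and 8 higher values (median 0.01), but 3 and 12 without distal 3. FNTB, a farnesyltransferase subunit, had 4.72 to 5.30 CPM in proximal and 3.48 to 4.396 CPM in distal libraries. DHDDS, of dolichol synthesis, differed by 0.10 on the log2 scale (SE 0.10), or 0.03 without proximal 2. No gene of these 5 lists was called.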

How the data were processed

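Messenger RNA of 6 tumour samples, 3 proximal and 3 distal, was sequenced from TruSeq libraries, per the labels' protocols. The table the authors deposited holds whole-number read counts by gene symbol, not normalized. Software named in the submitters' processing notes was STAR 2.7.3a, Trimmomatic 0.39, bcl2fastq, DESeq2 and featureCounts 2.0.1, and the build was GRCh38. For the annotation, the strand setting and host reads, the sources used here give nothing, so host reads that align to human genes may be counted.

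Counts were analysed in R 4.3.3 with edgeR 4.0.16: expression filter by group, TMM scaling, robust quasi-likelihood test of distal against proximal, Benjamini-Hochberg adjustment over all 13382 genes tested at 0.05. The SE is the absolute log2 fold change over the square root of F. The exact permutation test used log2(CPM + 0.1), and library deviations log2 CPM with a prior count of 3. Alternatives were RLE, upper-quartile and no scaling, 2 other filters, DESeq2 1.42.0, limma-voom (limma 3.58.1), the replicate block, each library left out, and proximal 3 and distal 3 left out. No 2 libraries agreed within sampling noise. The procedure was tested on simulated data.

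The members, the 5 further lists, the marker lists and the alternatives were chosen with earlier results of these data known. All members are named, and from each further list the 2 genes with the lowest p. Gene coordinates and promoters are from RefSeq (GRCh38.p14), exon lengths and overlaps from GENCODE 29. Length per transcript was added after seeing the data.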

Additional observations from a re-analysis of the deposited data

How the results depend on the processing

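Scaling, filter and tool left the members' picture in place: 24 of 27 had lower values in distal under each of RLE, upper-quartile and no scaling, both other filters, DESeq2, limma-voom and the replicate block, with a median log2 fold change from -0.17 to -0.14. With 1 library left out the count ran from 20 to 25 and the median from -0.25 to -0.08. Without proximal 3 and distal 3 they were 21 and -0.11. No member was called in any of these settings, where the smallest adjusted p of a member was 0.998. Over all genes, DESeq2 called 1 gene, where edgeR called 0 (178 at an unadjusted p under 0.05, against 191 in DESeq2 and 170 in limma-voom). With 1 library left out edgeR called from 0 to 1. The gene was EDIL3, no member, named here after its values were seen.

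Signs turned for several members when libraries were left out, among them MSMO1 (-0.18), SCAP (-0.18) and NPC1 (-0.20), and the cause was not tested. With 1 library left out, log2 fold changes ran from -0.21 to 0.017 for ACAT2, from -0.16 to 0.028 for MVD, from -0.33 to 0.012 for MSMO1, from -0.0019 to 0.040 for EBP, from -0.023 to 0.096 for INSIG2, from -0.42 to 0.18 for STARD4 and from -0.13 to 0.086 for NPC2. The library that turned the sign was proximal 2 for ACAT2, distal 2 for EBP and distal 3 for MSMO1. It was proximal 2 or distal 1 for MVD, proximal 2 or distal 3 for STARD4 and NPC2, and proximal 3 or distal 3 for INSIG2. Without proximal 3 and distal 3, the values were 0.032 for SCAP, -0.076 for INSIG2, 0.094 for STARD4, 0.013 for NPC1 and 0.048 for NPC2.

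Same-numbered libraries had correlations of their deviations from the group means of 0.361, -0.114 and 0.182. Proximal 1 correlated best with distal 1 and proximal 3 with distal 3, but proximal 2 also with distal 3 (0.107). The labels name no pairing, so whether the numbers pair the samples is not known, and the main fit did not use them. With the replicate block edgeR called 0 genes, the members' median was -0.17, and 7 members reached an unadjusted p under 0.05 in place of 1. The share of all genes under that threshold with the block is not given here, so the 7 are not read as a result about the members.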
